A study of Schmidtea mediterranea with 60 samples.

Results

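The second step of the early wound response was read in control wounds of the planarian Schmidtea mediterranea, as the difference between 6 hours and 3 hours post amputation (hpa). The rule took all control RNAi libraries at those times, 5 at 6 hpa and 5 at 3 hpa, which is 10 of the 60 libraries of the series. All animals were of the clonal asexual strain CIW4. The control animals had been fed liver carrying double-stranded RNA of unc-22, a Caenorhabditis elegans gene, in 4 feedings, and were cut 7 days after the last one. Anterior-facing wounds of post-pharyngeal fragments were then collected at 6 hpa or 3 hpa, with 5 wounds pooled in each replicate. The other libraries hold control wounds at 0, 16, 24 and 48 hpa and wounds at the same 6 times after feeding of bmp4 double-stranded RNA, also in 5 replicates each. No source states how the replicates were grouped at collection, so the p-values measure the spread between these pools, and part of that spread may be technical.

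After amputation, planarian tissue first closes the wound and switches on a transient set of wound-induced genes in epidermis, muscle and stem cells called neoblasts. This early response also includes more neoblast division and cell death near the wound. A later phase follows only where tissue is missing. It includes body-wide cell death, a second and lasting phase of neoblast division, neoblast accumulation and the building of a blastema. In bulk RNA of whole wounds, fewer cells of a type and less RNA per cell cannot be told apart.

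Of the transcripts named by the study, equinox is the one tied to the wound epidermis, and its coding start is shown so that the transcript followed here can be recognised. The stretch covers the first 240 bases of the reading frame of dd_Smed_v6_20318_0_1, copied from the study's table of equinox sequences, 5′ to 3′, with the start codon in capitals.
equinox: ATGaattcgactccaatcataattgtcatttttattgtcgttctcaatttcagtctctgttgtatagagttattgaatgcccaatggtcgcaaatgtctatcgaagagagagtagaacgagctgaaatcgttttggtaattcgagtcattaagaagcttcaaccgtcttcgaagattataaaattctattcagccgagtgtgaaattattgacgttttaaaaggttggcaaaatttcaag
The transcript is the wound epidermis gene that the study followed. It measured 11.8, 11.5, 13.8, 12.4 and 11.7 CPM in the 6 hpa libraries, against 7.15, 6.49, 6.51, 5.95 and 5.56 CPM in the 3 hpa libraries. Every 6 hpa library lay above every 3 hpa library, and the fitted rise was 1.94-fold (log2 fold change 0.95 ± 0.136 SE, edgeR adjusted p = 5.11e-07). On log2(CPM + 1) values, exact permutation of the 10 libraries (two-sided) gave p = 0.00794, the smallest value that 5 against 5 allows, and 0.0238 after adjustment over 3 tests (equinox, bmp4 and the mitochondrial share). The study singled out equinox in RNA sequencing of this same series, so these p-values are not an independent test of its rise. CPM is the count relative to the scaled library total, and levels are compared between libraries and not between transcripts, since lengths were not used.

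The bmp4 transcript (dd_Smed_v6_17402_0_1), a ligand of the dorsal-ventral axis, did not pass the test between the same times. It had 3.27, 2.42, 2.66, 2.25 and 3.47 CPM in the 6 hpa libraries, against 3.47, 1.80, 1.84, 2.46 and 1.88 CPM in the 3 hpa libraries. The ranges overlapped and the log2 fold change was 0.29 with a 95% interval of -0.89 to 1.47 (adjusted p = 0.858 by edgeR, exact permutation p = 0.206). Only 29 to 56 counts per library lay behind these values.

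The 10 libraries were of similar depth. Totals ran from 13.0 to 23.9 M counts at 6 hpa and from 15.5 to 20.1 M at 3 hpa, and log2 CPM correlated at 0.9877 to 0.9916 within the 6 hpa group and 0.9862 to 0.9911 within the 3 hpa group. Between libraries of a group, chi-square per degree of freedom was at least 3.75, so no library repeated another within counting error. The leading component of variation within groups, 12.5% of the variance over the series, spread more widely among the 3 hpa libraries (scores -17.9 to 18.4) than among the 6 hpa libraries (-5.67 to 4.81). The same comparisons with this component as a covariate are given with the other alternatives. Planarian cell type markers could not be looked up, because the sources used here give no transcript ID for them. The share of counts on 8 mitochondrial genome transcripts was 0.289 ± 0.0499% at 6 hpa and 0.249 ± 0.0418% at 3 hpa (mean ± SD, n = 5 each), a difference that the exact permutation test did not call (p = 0.19, adjusted p = 0.206).

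Between 3 and 6 hpa, 842 of 18510 tested transcripts rose and 700 fell (edgeR quasi-likelihood test, adjusted p under 0.05), which is 8.33% called. At an unadjusted p under 0.05 there were 3736. Most changes were small. The median fold among the rises was 1.29 and the falls had the same median size, with a median log2 fold change of -0.37. At least a 2-fold change was more common upward, with 95 rises (0.513% of those tested) and 29 falls (0.157%), and 4-fold or more was reached by 21 rises and 1 fall. The 5 libraries at 6 hpa did not overlap the 5 at 3 hpa for 1181 called transcripts, 6.38% of those tested, and for 9.5% of all transcripts whether called or not. The median log2 fold change over all transcripts was -0.01.

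**Figure D1:**
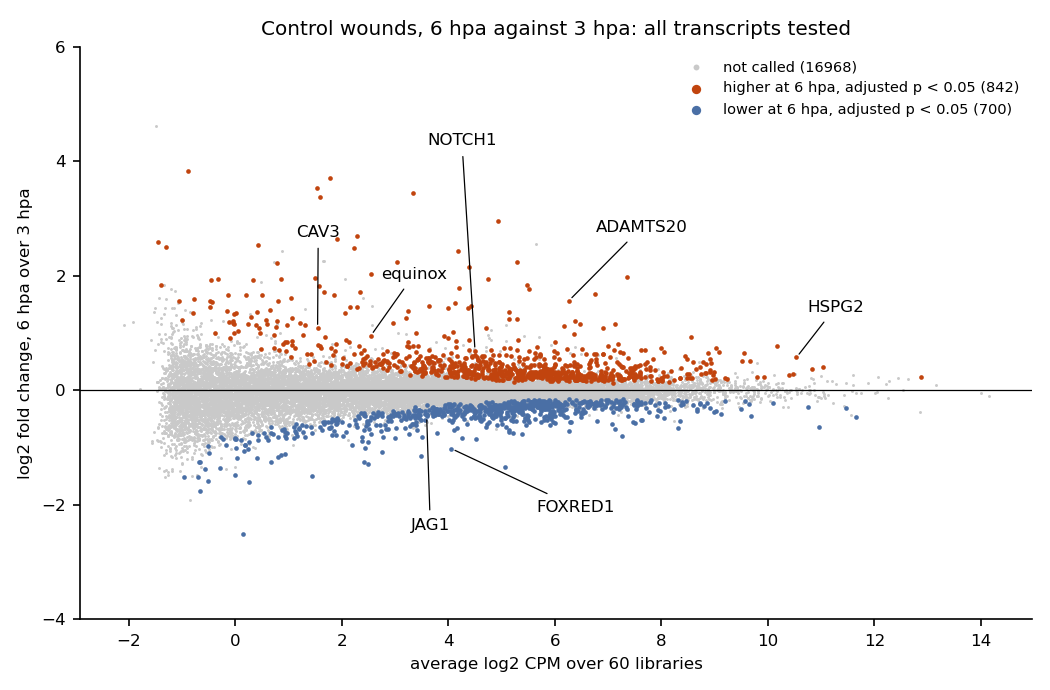
Log2 fold change of control wounds at 6 hpa over 3 hpa against average log2 CPM over 60 libraries, 1 point per transcript. Red points (842) were higher and blue points (700) lower at adjusted p under 0.05, the named points are equinox and transcripts called by their protein match, and 6 points outside the plotted range (3 of them called) are not drawn.

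Names for the other transcripts come from protein similarity. The study's annotation sheet as held here lists 1200 transcript IDs, of which 748 carry a best human or mouse match. Of those, 579 were tested, out of 18510 transcripts tested in all. Rankings by name, and lists built from matches, hold within these 579 only. Of the 579, 32 rose and 28 fell, which is 10.4% called. The 14 largest rises and the 14 largest falls among the matched transcripts are described below, each with no overlap between the 2 groups of libraries by the rule that chose them. A transcript is called here by its match, which gives likeness of sequence and not proof of the same function.

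Matches of secreted and matrix proteins included the steepest of these rises. The ADAMTS20 match (dd_Smed_v6_10259_0_1) carries reprolysin, thrombospondin type 1 and GON domain matches, as do secreted ADAMTS proteases that cut matrix proteoglycans. It measured 124, 117, 119.9, 102 and 116 CPM in the 6 hpa libraries, against 42.4, 40.5, 34.1, 41.7 and 36.98 CPM in the 3 hpa libraries. The rise was 2.96-fold (log2 fold change 1.57 ± 0.0844 SE, edgeR adjusted p = 5.40e-22). Next to it in this group stood the HSPG2 match (dd_Smed_v6_1054_0_1), where HSPG2 is perlecan, a large proteoglycan of basement membranes. It had 1869, 1584, 1671, 1439 and 1622 CPM in the 6 hpa libraries, against 1142, 1002, 952, 1225 and 1178 CPM in the 3 hpa libraries. The groups were separate, at 1.49-fold (log2 fold change 0.57 ± 0.0924 SE, edgeR adjusted p = 7.12e-06). Of 10 tested members of the extracellular matrix list these 2 rose, none fell and 8 were not called. Of all transcripts 4.55% rose and 3.78% fell. Both members were chosen for the size of their steps, so 2 of 10 is not a rate to set beside those shares. The collagen match COL2A1 (dd_Smed_v6_1070_0_1) stood at -0.01 on the log2 scale (adjusted p = 0.988 by edgeR), and the list median was 0.02, beside -0.01 over all transcripts.

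**Figure D2:**
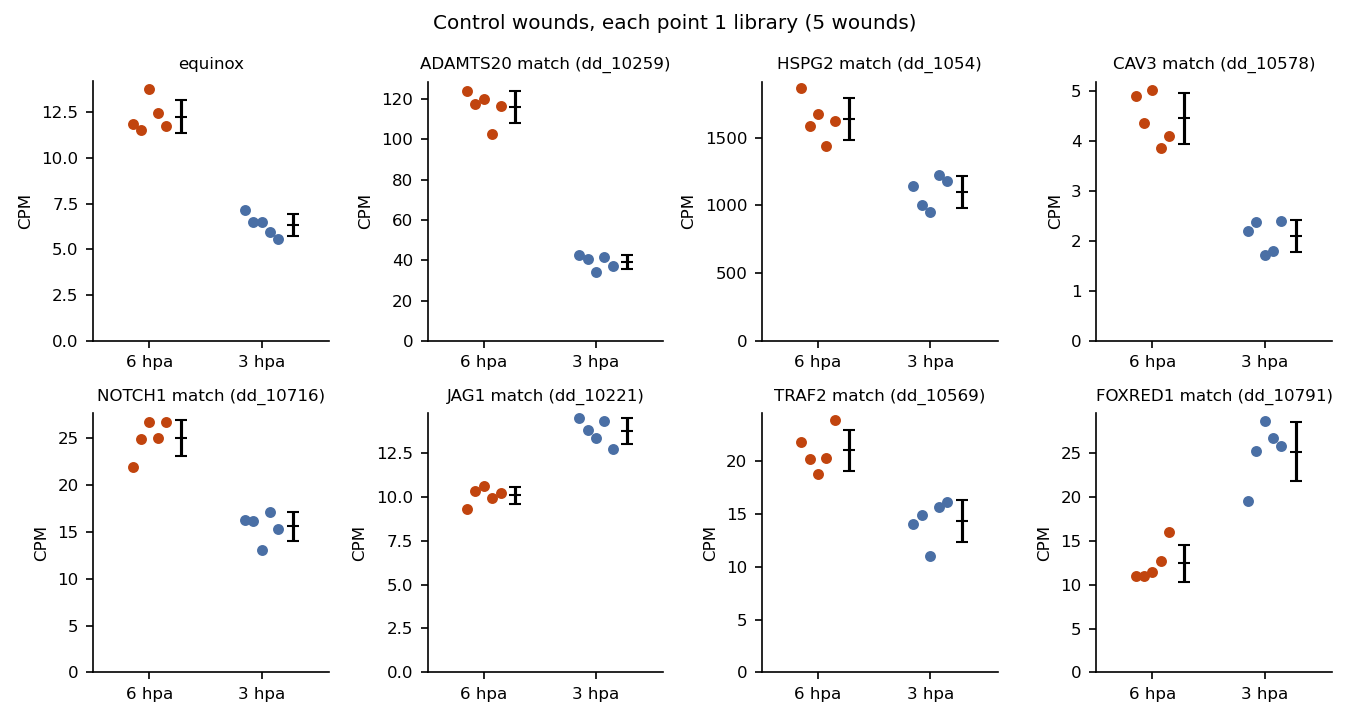
CPM of 8 transcripts in control wounds at 6 hpa (left, red) and 3 hpa (right, blue), 1 point per library, with mean ± SD (n = 5) beside the points. In 7 panels, of named rises and falls, no overlap between the groups was part of the rule that chose them. The groups do not overlap in the 1 panel of equinox either.

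Of the Notch pathway matches, that of a receptor rose and that of a ligand fell. In this pathway a membrane ligand on one cell binds the Notch receptor of its neighbour, which is then cut and acts in the nucleus. The NOTCH1 match (dd_Smed_v6_10716_0_1) is listed with EGF-repeat domains only. It had 21.97, 24.9, 26.7, 25.1 and 26.7 CPM in the 6 hpa libraries, against 16.3, 16.2, 13.1, 17.2 and 15.3 CPM in the 3 hpa libraries. The receptor match was higher in 5 of 5 libraries, at 1.61-fold (log2 fold change 0.68 ± 0.0852 SE, edgeR adjusted p = 1.98e-08). JAG1 is a Notch ligand, and its match (dd_Smed_v6_10221_0_1) carries the DSL domain of such ligands. It measured 9.31, 10.3, 10.6, 9.90 and 10.2 CPM in the 6 hpa libraries, against 14.5, 13.8, 13.3, 14.3 and 12.7 CPM in the 3 hpa libraries. All 6 hpa values were the lower ones (log2 fold change -0.45 ± 0.106 SE, edgeR adjusted p = 0.0027). SBNO1 is related to the fly gene strawberry notch, and its match (dd_Smed_v6_10374_0_1) had 19.7, 21.1, 17.2, 16.2 and 20.01 CPM in the 6 hpa libraries, against 26.9, 35.7, 23.0, 25.2 and 31.9 CPM in the 3 hpa libraries. It fell to 0.662 of the 3 hpa level (log2 fold change -0.60 ± 0.134 SE, edgeR adjusted p = 0.00158). The NOTCH1, JAG1 and SBNO1 matches were chosen for the size of their steps, so they give no rate of calls for the pathway. Over all transcripts 8.33% were called. Of the other Notch pathway matches looked at, none was called. The NOTCH3 match (dd_Smed_v6_10106_0_1) stood at -0.11 on the log2 scale (adjusted p = 0.54 by edgeR). The matches of MIB1 and MIB2, ubiquitin ligases that act on the ligands, had log2 values of 0.14 (dd_Smed_v6_10500_0_1, adjusted p = 0.649 by edgeR) and -0.77 (dd_Smed_v6_10104_0_1, adjusted p = 0.0724).

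TRAF proteins link receptors of the tumour necrosis factor family to kinase cascades, and planarians have many copies. Of 8 TRAF matches tested, 1 rose and 7 were not called, with a list median of -0.01. At 8.33% of all transcripts called, 1 of 8 is near the background. The one that rose is a TRAF2 match (dd_Smed_v6_10569_0_1), with 21.8, 20.2, 18.8, 20.3 and 23.9 CPM in the 6 hpa libraries, against 14.1, 14.9, 10.99, 15.6 and 16.1 CPM in the 3 hpa libraries. It was higher in every 6 hpa library, at 1.46-fold (log2 fold change 0.55 ± 0.114 SE, edgeR adjusted p = 4.61e-04). A second TRAF2 match (dd_Smed_v6_10117_0_1) averaged 22.8 ± 3.89 CPM at 6 hpa and 24.7 ± 2.29 CPM at 3 hpa (SD, n = 5 each), without a call (adjusted p = 0.52 by edgeR). How reads were divided between such related transcripts is set by the best alignment of each read, so members of this family are less certain than single-copy transcripts.

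The CAV3, ATP2A2 and PDIA6 matches rose as well. Caveolin-3, matched by dd_Smed_v6_10578_0_1, shapes pits of the muscle cell membrane. Its match had 4.90, 4.36, 5.02, 3.85 and 4.10 CPM in the 6 hpa libraries, against 2.20, 2.38, 1.72, 1.79 and 2.39 CPM in the 3 hpa libraries. That was 2.11-fold higher, from 28 to 101 counts per library (log2 fold change 1.08 ± 0.18 SE, edgeR adjusted p = 1.37e-05). The ATP2A2 match (dd_Smed_v6_1006_0_1) stands for a pump that returns calcium to the endoplasmic reticulum. It measured 714, 644, 680.5, 668 and 664 CPM in the 6 hpa libraries, against 471, 429, 504.9, 521 and 488 CPM in the 3 hpa libraries. Both groups were tight and separate (log2 fold change 0.48 ± 0.0761 SE, edgeR adjusted p = 4.89e-06). PDIA6 forms disulfide bonds of secreted proteins in the same compartment, and its match (dd_Smed_v6_1058_0_1) had 246, 206, 236, 212 and 215 CPM in the 6 hpa libraries, against 151, 133, 159, 167 and 145 CPM in the 3 hpa libraries. It rose 1.48-fold (log2 fold change 0.56 ± 0.0967 SE, edgeR adjusted p = 2.57e-05) and was the 1 called member among 8 tested chaperones and folding factors, again near the 8.33% called of all transcripts.

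Of the signalling enzymes, 2 more matches rose. PDE8A breaks down cyclic AMP. Its match (dd_Smed_v6_10593_0_1) had 34.5, 40.3, 36.5, 39.2 and 28.2 CPM in the 6 hpa libraries, against 19.8, 22.7, 23.0, 19.4 and 22.8 CPM in the 3 hpa libraries. The fold was 1.66 (log2 fold change 0.73 ± 0.0876 SE, edgeR adjusted p = 6.42e-09). TNK2 is a non-receptor tyrosine kinase, and its match (dd_Smed_v6_10115_0_1) had 101, 92.6, 100.2, 95.5 and 96.7 CPM in the 6 hpa libraries, against 69.5, 68.8, 73.2, 78.7 and 66.1 CPM in the 3 hpa libraries. Its standard error was the smallest of the 28 (log2 fold change 0.45 ± 0.0569 SE, edgeR adjusted p = 3.27e-08).

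The remaining rises belong to no shared group, and means here and below are given ± SD over 5 libraries. The GTF2IRD2B match (dd_Smed_v6_10215_0_1) had 17.1, 18.4, 23.9, 20.6 and 13.8 CPM in the 6 hpa libraries, against 5.14, 5.91, 9.64, 6.97 and 4.59 CPM in the 3 hpa libraries. At 2.89-fold this was the second steepest (log2 fold change 1.53 ± 0.163 SE, edgeR adjusted p = 5.50e-10). DYNLL2 is a light chain of the dynein motor with 2 matches here, and reads could be shared between them. The match dd_Smed_v6_10084_0_1 averaged 1.87 ± 0.372 CPM at 6 hpa and 0.862 ± 0.218 CPM at 3 hpa and rested on 10 to 54 counts per library (log2 fold change 1.14 ± 0.306 SE, edgeR adjusted p = 0.01). The match dd_Smed_v6_107_0_1 averaged 204 ± 14.04 CPM at 6 hpa and 153 ± 16.2 CPM at 3 hpa (log2 fold change 0.42 ± 0.0837 SE, edgeR adjusted p = 2.97e-04). SCLY, a lyase that releases selenium from selenocysteine, is matched by dd_Smed_v6_10675_0_1, which averaged 10.5 ± 0.552 CPM at 6 hpa and 7.55 ± 0.722 CPM at 3 hpa (log2 fold change 0.48 ± 0.0915 SE, edgeR adjusted p = 1.64e-04). The ZDHHC24 match (dd_Smed_v6_10127_0_1), of the family that attaches palmitate to proteins, averaged 7.50 ± 0.709 CPM at 6 hpa and 5.45 ± 0.602 CPM at 3 hpa (log2 fold change 0.46 ± 0.134 SE, edgeR adjusted p = 0.0195).

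The FOXRED1, SLC10A2 and ABCA1 matches were among the falls. FOXRED1 helps to assemble complex I of the respiratory chain. Its match (dd_Smed_v6_10791_0_1) had 10.9, 11.01, 11.4, 12.7 and 16.0 CPM in the 6 hpa libraries, against 19.6, 25.3, 28.7, 26.7 and 25.8 CPM in the 3 hpa libraries. This was the steepest fall with a name (log2 fold change -1.02 ± 0.141 SE, edgeR adjusted p = 3.51e-07). SLC10A2 takes up bile acids with sodium in mammals, and its match (dd_Smed_v6_10199_0_1) had 23.4, 20.9, 22.5, 22.8 and 24.8 CPM in the 6 hpa libraries, against 31.9, 35.7, 38.1, 33.0 and 33.2 CPM in the 3 hpa libraries. The groups stood apart by more than the range within either (log2 fold change -0.59 ± 0.101 SE, edgeR adjusted p = 2.10e-05). ABCA1 exports cholesterol, and its match (dd_Smed_v6_10304_0_1) averaged 33.8 ± 2.61 CPM at 6 hpa and 44.1 ± 4.25 CPM at 3 hpa (log2 fold change -0.38 ± 0.0828 SE, edgeR adjusted p = 8.80e-04).

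Matches of 2 nuclear proteins were also among the falls. BPTF is the large subunit of a chromatin remodeller and reads histone marks. Its match (dd_Smed_v6_10311_0_1) had 14.5, 15.4, 14.7, 15.6 and 19.6 CPM in the 6 hpa libraries, against 23.9, 21.5, 23.1, 22.4 and 22.7 CPM in the 3 hpa libraries. The highest 6 hpa value stayed below the lowest 3 hpa value (log2 fold change -0.51 ± 0.11 SE, edgeR adjusted p = 9.24e-04). The match of DDX5, an RNA helicase of splicing and transcription (dd_Smed_v6_10179_0_1), averaged 8.39 ± 0.598 CPM at 6 hpa and 11.2 ± 1.14 CPM at 3 hpa (log2 fold change -0.42 ± 0.124 SE, edgeR adjusted p = 0.0224).

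The last falls cover centrosomal, receptor and other proteins. MDM1 binds microtubules at the centriole, and its match (dd_Smed_v6_10635_0_1) averaged 23.2 ± 2.18 CPM at 6 hpa and 31.0 ± 0.797 CPM at 3 hpa (log2 fold change -0.42 ± 0.0979 SE, edgeR adjusted p = 0.00233). The LRRCC1 match (dd_Smed_v6_10086_0_1), also of the centrosome, averaged 17.9 ± 0.688 CPM at 6 hpa and 23.0 ± 2.55 CPM at 3 hpa (log2 fold change -0.36 ± 0.107 SE, edgeR adjusted p = 0.0234). ADGRL3 is a latrophilin, an adhesion receptor of synapses, and its match (dd_Smed_v6_10094_0_1) averaged 11.3 ± 1.27 CPM at 6 hpa and 15.1 ± 0.952 CPM at 3 hpa (log2 fold change -0.41 ± 0.115 SE, edgeR adjusted p = 0.0141). The TCAF2 match (dd_Smed_v6_10257_0_1), in mammals a partner of cold-sensing ion channels, averaged 14.9 ± 1.13 CPM at 6 hpa and 23.7 ± 3.77 CPM at 3 hpa (log2 fold change -0.66 ± 0.114 SE, edgeR adjusted p = 2.41e-05). CAPN15 is a calpain protease, though its match (dd_Smed_v6_10379_0_1) is listed with a zinc finger domain only, and averaged 5.62 ± 0.767 CPM at 6 hpa and 8.90 ± 1.08 CPM at 3 hpa (log2 fold change -0.66 ± 0.154 SE, edgeR adjusted p = 0.00222). The ankyrin-repeat match ANKDD1B (dd_Smed_v6_10620_0_1) averaged 7.01 ± 0.808 CPM at 6 hpa and 12.5 ± 1.29 CPM at 3 hpa (log2 fold change -0.83 ± 0.125 SE, edgeR adjusted p = 1.72e-06). The match of mouse Ccdc154 (dd_Smed_v6_10236_0_1) averaged 13.8 ± 1.67 CPM at 6 hpa and 17.5 ± 0.892 CPM at 3 hpa (log2 fold change -0.33 ± 0.109 SE, edgeR adjusted p = 0.0452).

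For 23 of the 28 transcripts the call held with any 1 of the 10 libraries left out, and for 5 it did not. ZDHHC24 lost it without replicate 3 at either time or replicate 5 at 6 hpa (edgeR adjusted p up to 0.0618). Its log2 fold change was 0.41 to 0.52 over the 10 fits. DDX5 lost it without replicate 2 or 5 at either time (adjusted p up to 0.0757, log2 fold change -0.47 to -0.37), and ADGRL3 without replicate 1 or 5 at 6 hpa (up to 0.0615, -0.45 to -0.36). LRRCC1 lost it without replicate 1 at either time, replicate 2 at 3 hpa or replicate 5 at 6 hpa (up to 0.104, -0.40 to -0.30). Ccdc154 lost it without any of 8 libraries, namely any 3 hpa library or replicate 1, 3 or 5 at 6 hpa (up to 0.146, -0.39 to -0.28). The teneurin transcript named by the study (dd_Smed_v6_5439_0_1), of a family of transmembrane adhesion proteins, belongs here too. It had 152, 162, 157, 145 and 146 CPM in the 6 hpa libraries, against 131, 136, 121, 142 and 134 CPM in the 3 hpa libraries. The groups did not overlap and the call was marginal (log2 fold change 0.20 ± 0.067 SE, edgeR adjusted p = 0.0497), being lost without replicate 1, 2, 3 or 5 at 3 hpa or replicate 1, 2 or 3 at 6 hpa (edgeR adjusted p up to 0.138, log2 fold change 0.18 to 0.23).

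Lists of transcripts grouped by the known role of their match gave few calls. Apart from the 8 mitochondrial genome transcripts, the members come from the annotation sheet as held here. Members of the same classes outside it were not looked up. Of 180 tested members of 13 lists, 11 rose and 5 fell, beside 4.55% of all transcripts rising and 3.78% falling. Those 11 and 5 are 6.11% and 2.78% of the members. The lists were chosen with earlier results of these data known, so these shares are a description and not a test. Among the 7 cell death regulators none was called, and the list median was 0.02. Of 24 cilia and axoneme members, 1 fell and none rose, with a median of -0.05, beside -0.01 over all transcripts. The member that fell is the CEP120 match (dd_Smed_v6_10444_0_1), of a protein that lengthens centrioles, which averaged 16.9 ± 2.11 CPM at 6 hpa and 21.4 ± 1.59 CPM at 3 hpa (log2 fold change -0.33 ± 0.0927 SE, edgeR adjusted p = 0.0133). DNA replication, repair and cell cycle transcripts gave 1 rise in 16, the RNASEH2A match (dd_Smed_v6_10404_0_1), a subunit of an enzyme that removes RNA from DNA, which averaged 12.9 ± 0.735 CPM at 6 hpa and 10.3 ± 0.902 CPM at 3 hpa (log2 fold change 0.32 ± 0.105 SE, edgeR adjusted p = 0.0427). In the ribosome biogenesis list 1 of 20 rose, the NUFIP1 match (dd_Smed_v6_10222_0_1), which averaged 13.5 ± 1.66 CPM at 6 hpa and 10.96 ± 1.04 CPM at 3 hpa (log2 fold change 0.30 ± 0.0954 SE, edgeR adjusted p = 0.0342).

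The list of neuronal receptors, channels and synapse proteins, which does not hold the ADGRL3 match described above, gave 1 rise and 1 fall in 19. The SHANK3 match (dd_Smed_v6_10116_0_1), a scaffold of excitatory synapses, averaged 62.5 ± 2.81 CPM at 6 hpa and 51.3 ± 3.40 CPM at 3 hpa (log2 fold change 0.28 ± 0.0783 SE, edgeR adjusted p = 0.0119). The GRM3 match (dd_Smed_v6_10130_0_1), a glutamate receptor, averaged 24.6 ± 1.88 CPM at 6 hpa and 31.6 ± 3.87 CPM at 3 hpa (log2 fold change -0.36 ± 0.105 SE, edgeR adjusted p = 0.0208). Of 22 tested signalling components 2 rose and 1 fell, beside 4.55% of all transcripts rising and 3.78% falling. Besides the NOTCH1 and JAG1 matches, the call was that of the netrin receptor match UNC5C (dd_Smed_v6_10730_0_1). It averaged 68.6 ± 3.35 CPM at 6 hpa and 54.8 ± 7.44 CPM at 3 hpa (log2 fold change 0.32 ± 0.0818 SE, edgeR adjusted p = 0.00556). Of 15 sequence-specific transcription factors the ESR1 match (dd_Smed_v6_10427_0_1), of a nuclear hormone receptor, fell (log2 fold change -0.20 ± 0.0578 SE, edgeR adjusted p = 0.0183). The list of 8 nuclear-encoded mitochondrial proteins, which does not hold the FOXRED1 match described above, and the 8 mitochondrial genome transcripts held no call, with medians of 0.06 and 0.18. Single libraries decided several of these calls, and the number lost among 10 left out in turn was 3 for CEP120, 7 for RNASEH2A, 5 for NUFIP1, 3 for GRM3 and 3 for ESR1, with adjusted p up to 0.132, and 0 for SHANK3 and UNC5C.

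The libraries labelled bmp4 RNAi give the same step in other animals. Among them, replicate 4 at 3 hpa had 5.92 M counts, the lowest of the series. Scores on the leading component within groups reached 33.6 in replicate 2 at 3 hpa and 44.3 in replicate 3 at 6 hpa. The highest score in the control libraries at these times was 18.4. The bmp4 RNAi label was read against its target first. The bmp4 transcript had 1.84, 0.863, 0.565, 1.79 and 0.487 CPM in the 6 hpa libraries labelled bmp4 RNAi, against 5.04, 6.80, 1.41, 10.7 and 10.3 CPM in those at 3 hpa. In control the means were 2.81 ± 0.532 CPM at 6 hpa and 2.29 ± 0.715 CPM at 3 hpa (SD, n = 5 each), so at 3 hpa the target was on average higher in the libraries labelled bmp4 RNAi than in control, and at 6 hpa lower. The study reports lower dorsal epidermis markers and lower equinox after bmp4 RNAi. Why the target transcript was higher at 3 hpa was not tested, and the label is therefore used only as a name. Across all transcripts, 456 rose and 396 fell between 3 and 6 hpa in these libraries (edgeR, 4.6% called), and 237 in all were called when their 10 libraries at these times were fitted alone. Without TMM factors 29.9% of 973 calls were rises, against 53.5% with them.

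Transcripts that rose in control mostly had the same sign in the libraries labelled bmp4 RNAi, which share no library with the control step. Of the 842 rises, 776 (92.2%) had a positive step there, beside 51% of all transcripts. Of these rises 279 (33.1%) were called higher and 1 was called lower, beside 2.46% of all transcripts called higher. Their median log2 step was 0.20 in the libraries labelled bmp4 RNAi, against 0.37 in control, where the rises were chosen. Of the 700 falls, 169 (24.1%) were called lower and none higher, beside 2.14% of all transcripts called lower, and 85 (12.1%) had a positive step, beside the same 51%. The median was -0.17 there, against -0.37 in control. Because control values chose these sets, their smaller size in the other libraries is not a test of a difference. equinox had 4.14, 3.32, 2.69, 1.602 and 2.97 CPM in the 6 hpa libraries labelled bmp4 RNAi, against 2.11, 1.72, 2.21, 1.33 and 1.93 CPM in those at 3 hpa. Its step was 0.62 on the log2 scale (adjusted p = 0.0292 by edgeR), and the difference from the control step was -0.33 with a 95% interval of -0.79 to 0.12 (adjusted p = 0.736). The level of equinox was lower there at both times. Means were 2.94 ± 0.928 CPM at 6 hpa and 1.86 ± 0.349 CPM at 3 hpa. In control they were 12.3 ± 0.908 and 6.33 ± 0.606 CPM (SD, n = 5 each). That difference in level was not tested here, and it was among the study's grounds for singling out equinox.

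The difference between the 2 steps was tested directly and called for 17 transcripts, 0.0918% of those tested (10, or 0.054%, with the lower step in the libraries labelled bmp4 RNAi and 7, or 0.0378%, with the higher). At an unadjusted p under 0.05 there were 1530. Among the 28 transcripts with names, 4 were called, the ADAMTS20, NOTCH1, TRAF2 and ABCA1 matches. The 28 were chosen for large and separate steps in control libraries that the difference also uses. Their number of calls is therefore not a rate to set beside the share over all transcripts. Relative to control, the libraries labelled bmp4 RNAi had the lower step for the first 3 and the higher step for ABCA1.

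The NOTCH1 match (dd_Smed_v6_10716_0_1) had a step near 0 in the libraries labelled bmp4 RNAi. It measured 20.4, 20.3, 23.0, 18.6 and 20.4 CPM in the 6 hpa libraries labelled bmp4 RNAi, against 23.1, 16.7, 18, 22.2 and 21.9 CPM in those at 3 hpa. Those groups overlapped, with a log2 fold change of 0.02 there against 0.68 in control (difference -0.66 ± 0.121 SE, edgeR adjusted p = 0.00313). The TRAF2 match (dd_Smed_v6_10569_0_1) had 15.7, 15.7, 11.7, 12.3 and 11.1 CPM in the 6 hpa libraries labelled bmp4 RNAi, against 15.5, 15.01, 13.3, 19.5 and 16.1 CPM in those at 3 hpa. Its log2 fold change was -0.24 there against 0.55 in control (difference -0.80 ± 0.163 SE, edgeR adjusted p = 0.0146). For the ADAMTS20 match (dd_Smed_v6_10259_0_1) the step was present in both conditions and smaller in one. It had 64.9, 63.1, 51.4, 63.7 and 64.3 CPM in the 6 hpa libraries labelled bmp4 RNAi, against 32.8, 30.5, 36.5, 30.2 and 34.02 CPM in those at 3 hpa. The groups did not overlap, at 0.90 on the log2 scale against 1.57 in control (difference -0.66 ± 0.119 SE, edgeR adjusted p = 0.00313). The ABCA1 match (dd_Smed_v6_10304_0_1) went the other way, with 26.6, 22.9, 26.4, 24.2 and 18.3 CPM in the 6 hpa libraries labelled bmp4 RNAi, against 20.2, 19.9, 22.8, 19.7 and 20.8 CPM in those at 3 hpa. Its log2 fold change was 0.19 there against -0.38 in control (difference 0.58 ± 0.12 SE, edgeR adjusted p = 0.0162). The ABCA1 difference lost its call without replicate 2 at 3 hpa or replicate 1 at 6 hpa of control, or without replicate 1 or 3 at 6 hpa of the libraries labelled bmp4 RNAi. In those 4 fits edgeR gave adjusted p values of 0.0531 to 0.0684. With only the 20 libraries of both steps fitted, the adjusted p was 0.0856 for ABCA1 and 0.0511 for TRAF2, and in that fit the other 2 differences kept their call.

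**Figure D3:**
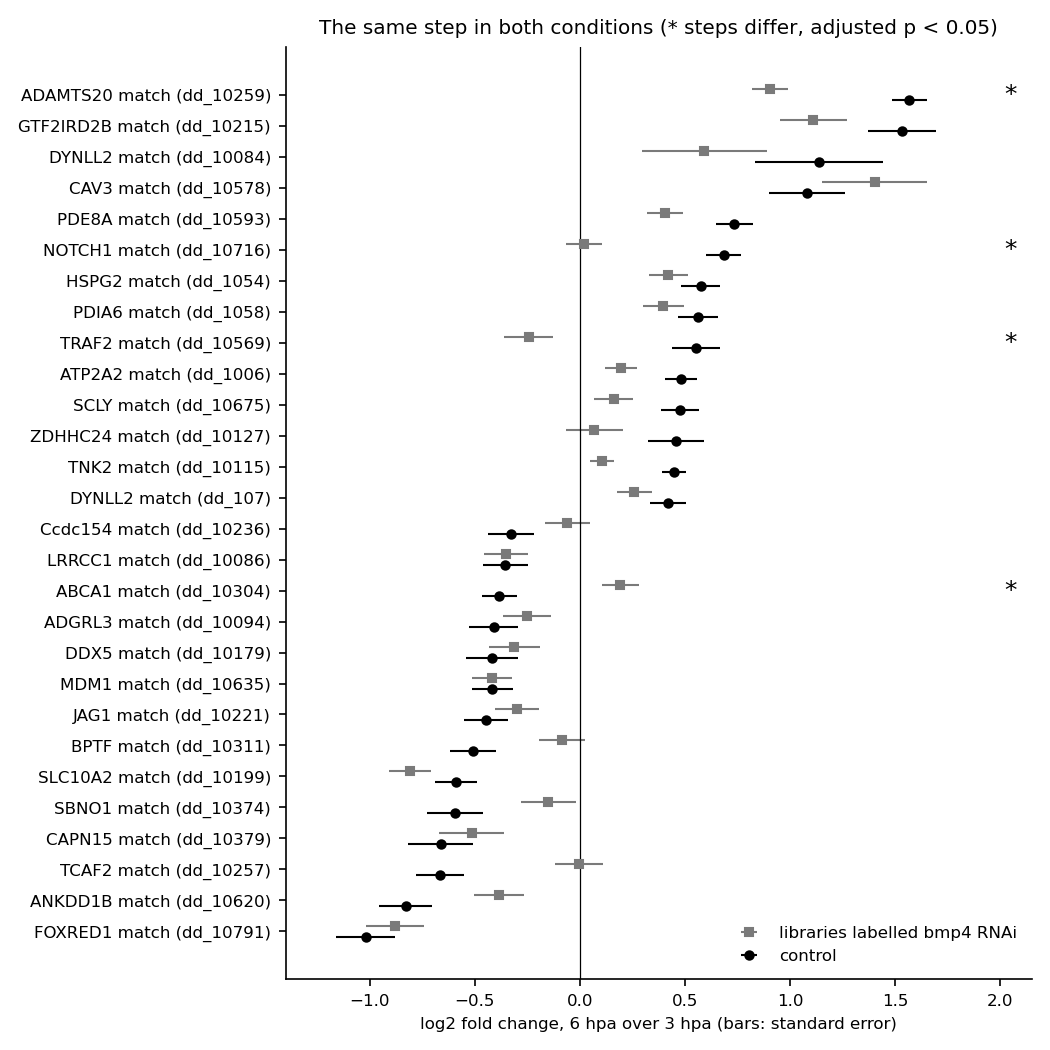
Log2 fold change of 6 hpa over 3 hpa (bars, standard error) for the 14 rises and 14 falls with names, in the libraries labelled bmp4 RNAi (grey squares) and in control (black circles). Stars mark the 4 transcripts whose steps differed, and 13 of the 14 rises and 13 of the 14 falls had the same sign in both conditions.

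Control wounds at 16, 24 and 48 hpa, set against 0 hpa, place the step in the longer response and use none of its 10 libraries. Of the 842 rises, 676 (80.3%) were higher at 16 hpa than at 0 hpa, 674 (80%) at 24 hpa and 610 (72.4%) at 48 hpa (edgeR adjusted p under 0.05), beside 16.8%, 17% and 20.9% of all transcripts. In either direction 32.4%, 33.6% and 41.1% of all transcripts were called at those times. Between 10 and 37 of the rises were lower. Of the 700 falls, 431 (61.6%) were lower at 16 hpa, 430 (61.4%) at 24 hpa and 439 (62.7%) at 48 hpa, beside 15.5%, 16.6% and 20.2% of all transcripts. Of the same falls, 42 (6%), 35 (5%) and 57 (8.14%) were higher than at 0 hpa at those times. For the 95 rises of at least 2-fold, 73 to 80 were higher at these times and none was lower.

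**Figure D4:**
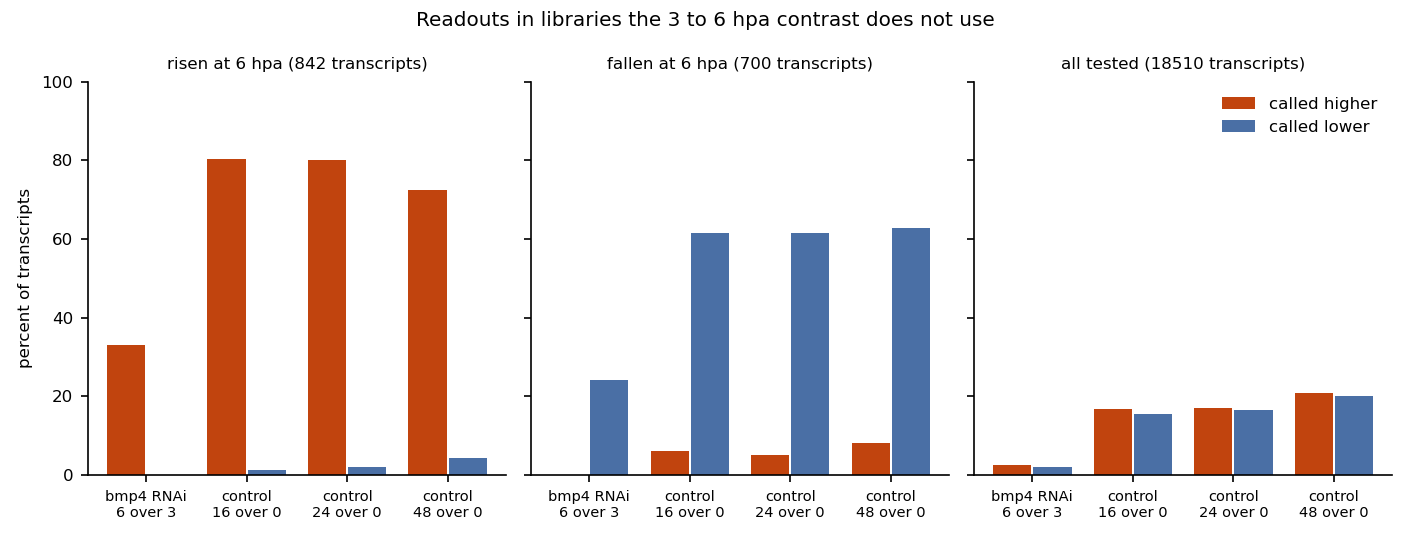
Percent of transcripts called higher (red) or lower (blue) at adjusted p under 0.05 in the libraries labelled bmp4 RNAi at 6 over 3 hpa and in control at 16, 24 and 48 over 0 hpa, for the 842 rises, the 700 falls and all 18510 transcripts. The rises were called higher in 33.1% to 80.3% of cases, against 2.46% to 20.9% of all transcripts.

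The transcripts with names followed different courses around the step. Each series of means below runs over 0, 3, 6, 16, 24, then 48 hpa, and the values at 3 and 6 hpa share their libraries with the step. The ADAMTS20 match (dd_Smed_v6_10259_0_1) was flat at first and then high, with means in time order of 38.3, 39.1, 116, 159, 137 and 95.7 CPM. The HSPG2 match (dd_Smed_v6_1054_0_1) had 1051, 1099.7, 1637, 2249, 2481 and 2040.4 CPM. The NOTCH1 match (dd_Smed_v6_10716_0_1) was highest at the last time, with 12.3, 15.6, 25.1, 27.5, 30.4 and 37.3 CPM. In contrast, the TRAF2 match (dd_Smed_v6_10569_0_1) had its highest mean at 6 hpa, with 7.28, 14.3, 21.0, 10.02, 8.91 and 8.17 CPM. At 24 and 48 hpa it was not called against 0 hpa (0.29 and 0.17 on the log2 scale, adjusted p = 0.0615 and 0.296 by edgeR). equinox (dd_Smed_v6_20318_0_1) had 4.75, 6.33, 12.3, 13.1, 11.5 and 7.11 CPM, and was called above 0 hpa at each of 16, 24 and 48 hpa.

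Among the falls, 2 were near the 0 hpa level at 6 hpa after a high value at 3 hpa. The ANKDD1B match (dd_Smed_v6_10620_0_1) had 7.16, 12.5, 7.01, 4.81, 4.79 and 3.94 CPM, and at 3 hpa it was higher than at 0 hpa (0.80 on the log2 scale, adjusted p = 2.29e-06 by edgeR). The SLC10A2 match (dd_Smed_v6_10199_0_1) had 21.6, 34.4, 22.9, 17.2, 9.61 and 13.0 CPM, with 0.67 on the log2 scale at 3 over 0 hpa (adjusted p = 1.13e-06 by edgeR). The BPTF match (dd_Smed_v6_10311_0_1) had 30.6, 22.7, 15.9, 32.2, 32.4 and 26.5 CPM, and was called below 0 hpa at 3 and 6 hpa and at none of the later times. The JAG1 match (dd_Smed_v6_10221_0_1) stayed low, with 16.7, 13.7, 10.1, 7.28, 7.58 and 9.67 CPM. Of the 14 rises with names, 12, 12 and 11 were called higher at 16, 24 and 48 hpa than at 0 hpa and none lower. Of the 14 falls, 7, 8 and 8 were called lower and 1, 0 and 1 higher. Of all transcripts, 16.8%, 17% and 20.9% were called higher at those times and 15.5%, 16.6% and 20.2% lower. The 14 rises and 14 falls were chosen for large and separate steps, so their counts give no rate of calls for matched transcripts.

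**Figure D5:**
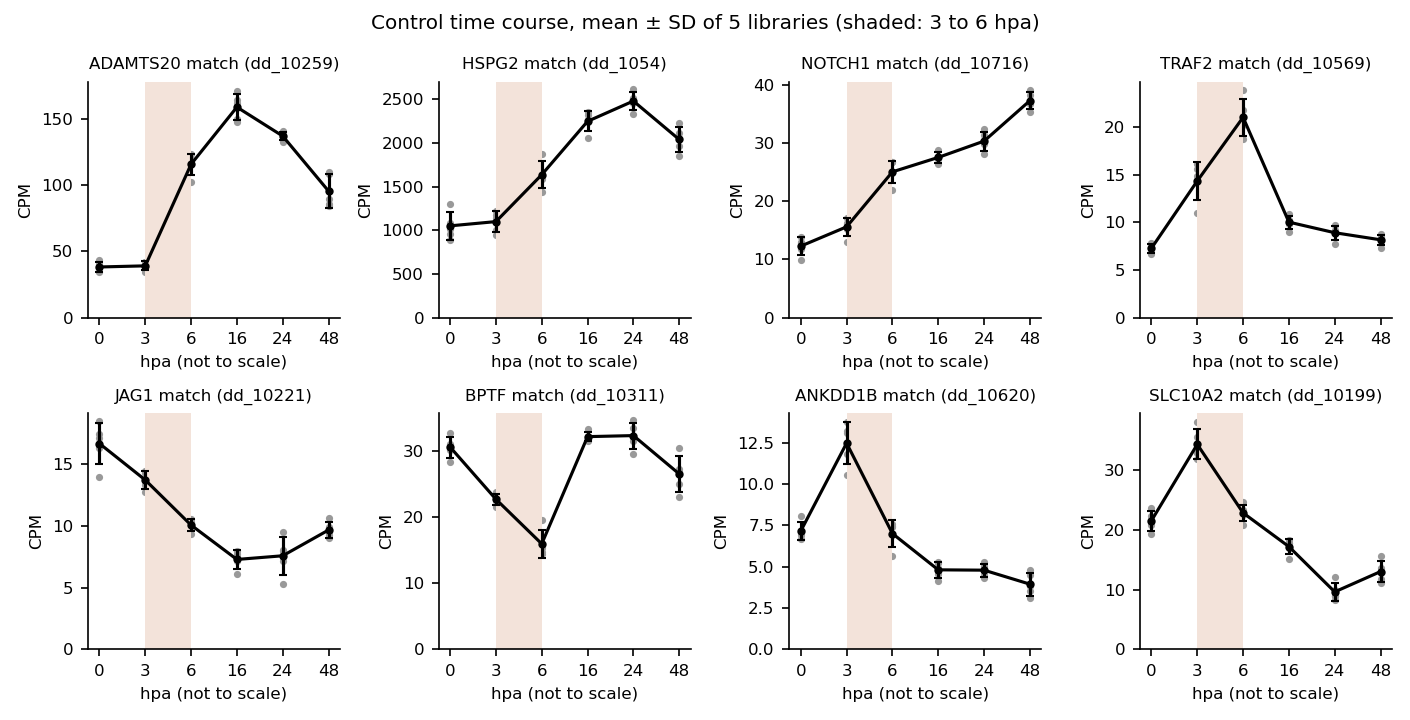
CPM of 8 transcripts over the control time course from 0 to 48 hpa (spacing not to scale), with mean ± SD of 5 libraries (black) and single libraries (grey), the 3 to 6 hpa step shaded. The TRAF2 match peaked at 6 hpa, the BPTF match was lowest at 6 hpa, and the ANKDD1B and SLC10A2 matches peaked at 3 hpa.

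The largest changes lay in transcripts without a match in the annotation sheet as held here. That sheet gave a match to 579 of the 18510 transcripts tested, so most had no name to be found. By the same rule, the steepest rises were dd_Smed_v6_808_0_1 and dd_Smed_v6_1268_0_1 and the steepest falls dd_Smed_v6_17495_0_1 and dd_Smed_v6_16442_0_1. In that order, counts per library ran from 0 to 1522, 0 to 62, 1 to 88 and 3 to 32. The low sides of these folds therefore rest on few counts. For dd_Smed_v6_808_0_1 the values were 10.1, 65.7, 0.304, 13.0 and 39.9 CPM in the 6 hpa libraries, against 0.0668, 0.290, 0, 0.0513 and 0 CPM in the 3 hpa libraries. It varied widely within groups, had 9.02 ± 19.5 CPM at 0 hpa (SD, n = 5), and lost its call without replicate 2 at 6 hpa (edgeR adjusted p 0.0572, against 0.0174 with all libraries). For dd_Smed_v6_1268_0_1 they were 5.07, 2.38, 3.81, 1.90 and 3.54 CPM in the 6 hpa libraries, against 0.468, 0.464, 0, 0 and 0.323 CPM in the 3 hpa libraries. It was higher than at 0 hpa at 16, 24 and 48 hpa, at 7.43, 11.6 and 14.03 CPM against 0.816 CPM. The fall of dd_Smed_v6_17495_0_1 went with 1.06, 0.518, 0.0761, 0.593 and 0.947 CPM in the 6 hpa libraries, against 3.21, 3.25, 4.18, 4.51 and 2.97 CPM in the 3 hpa libraries. That fall was the largest (log2 fold change -2.51 ± 0.321 SE, edgeR adjusted p = 3.64e-08). The values of dd_Smed_v6_16442_0_1 were 0.245, 0.259, 0.609, 0.593 and 0.442 CPM in the 6 hpa libraries, against 0.868, 0.985, 1.97, 1.33 and 1.29 CPM in the 3 hpa libraries (log2 fold change -1.597 ± 0.311 SE, edgeR adjusted p = 1.99e-04).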

How the data were processed

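Wounds of control and bmp4 RNAi animals were sequenced as polyA RNA in 60 libraries, with 50 bp reads, 5 replicates for each of 2 RNAi conditions and 6 times. The authors mapped reads to the dd_Smed_v6 transcriptome, kept the best alignment and deposited a raw count per transcript, summed over isotigs. Their processing notes name CASAVA 1.9, cutadapt 1.8, Bowtie 1.2 and SAMtools 1.6. No source states whether the kit keeps strand. The deposited table holds these counts alone. Reads that fit several related transcripts are placed by their best alignment, which can move counts within a gene family.

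The counts were fitted with edgeR 4.0.16 in R 4.3.3 (TMM scaling, robust quasi-likelihood test, 12 group means). Transcripts were kept by filterByExpr (min.count 10, min.total.count 15), leaving 18510 of 28742 transcripts, which hold 99.91% of counts. Benjamini-Hochberg adjustment ran over all of these within each comparison, with calls at an adjusted p under 0.05, and standard errors were taken from the fold change and its F value. The named transcripts were bmp4, equinox and teneurin, and, among those with a protein match, an average log2 CPM over 0, a call and no overlap between the groups, the 14 largest rises and 14 largest falls. The same rule gave 2 rises and 2 falls with no match. One of the 13 lists enters the totals only and is not reported here by its members. Members and lists were chosen with earlier results of these data known. Matches come from the study's annotation sheet, in which 1099 of 1174 earlier-assembly IDs carry the same number as the current ID. Depth ran from 5.92 to 23.9 M counts over the series (median 17.3 M), and the biological coefficient of variation was 12.5%. Alternatives were other scaling and filters, DESeq2 1.42.0, fewer libraries in the fit, the replicate number as a block, the leading component as a covariate, and each library left out in turn. The fit was tested on simulated data first.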

Additional observations from a re-analysis of the deposited data

Results flagged for a closer look

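In 4 of 72 groups of 5 control libraries, 1 library stood apart from the other 4 (its gap to the nearest library, as a share of the group's range, was above Dixon's critical value of 0.71). Chance alone gives about 1 such group in 20. The SCLY match (dd_Smed_v6_10675_0_1) had 9.53 CPM in replicate 5 at 6 hpa, against 10.6 to 10.96 CPM in the others (0.734). The BPTF match (dd_Smed_v6_10311_0_1) had 19.6 CPM in replicate 5 at 6 hpa, against 14.5 to 15.6 CPM in the others (0.782). The TCAF2 match (dd_Smed_v6_10257_0_1) had 30.2 CPM in replicate 2 at 3 hpa, against 20.2 to 22.97 CPM in the others (0.726). The unnamed dd_Smed_v6_808_0_1 had 0.29 CPM in replicate 2 at 3 hpa, against 0 to 0.0668 CPM in the others (0.769). The SCLY, BPTF and TCAF2 calls held with these libraries left out.

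The step differed between the libraries labelled bmp4 RNAi and control for 4 transcripts with names, as log2 fold change in the first minus that in the second. The difference was -0.66 for ADAMTS20, -0.66 for NOTCH1, -0.80 for TRAF2 and 0.58 for ABCA1, each tested as an interaction in edgeR.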

How the results depend on the processing

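The 43 transcripts counted here are teneurin, the 28 named rises and falls, the unnamed rises and falls, and the other called list members. They do not include equinox and bmp4, which were followed apart. All 43 kept the direction of their control step under each alternative that was run, and no result reversed. Of the 43, 29 kept their call under every alternative other than a 2-fold threshold. The control step gave 1542 calls, with 124 at a 2-fold threshold, 2572 with the leading component as a covariate, and 1211 to 1397 with 1 library left out. DESeq2 called 1683, sharing 1508 with the 1542, and no filter on low counts gave 1264. The step in the libraries labelled bmp4 RNAi gave 852 calls, with 79 at the 2-fold threshold, 237 with its own 10 libraries alone, 2232 with the component, and 583 to 1181 with 1 library left out. The difference of the steps gave 17, with 2 at the 2-fold threshold, 50 without TMM, 50 with DESeq2, 365 with the component, and 11 (without control 3 hpa replicate 2) to 34 (without bmp4 RNAi 3 hpa replicate 2) with 1 library left out. The share of positive differences was 41.2%, against 14% without TMM, 30% with DESeq2 and 17.6% with the libraries compared alone. List members called were 16, with 1 at the 2-fold threshold, 28 with the libraries compared alone, 27 with the 30 control libraries, 33 with the component, and 12 to 18 with 1 library left out. The log2 fold change was 0.912 to 0.9985 for equinox and 0.20 to 0.47 for bmp4 with 1 library left out, and the mitochondrial share differed by 0.0256 to 0.0569 percentage points. The causes of these movements were not tested.

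The replicate numbers are not paired by any label, and 1 of 5 same-numbered pairs correlated above 0.1 (0.0018 to 0.11). A replicate block over all 60 libraries gave 1441 control calls, 727 in the libraries labelled bmp4 RNAi and 21 differences. A replicate block with only the libraries compared gave 2159, 51 and 3, with 31 list members, and none of the 4 named differences was then called (edgeR adjusted p 0.0983 to 0.202).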
